A study of Rattus norvegicus with 24 samples.

Results

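The aldosterone experiment compared gene expression in the inner medulla of the kidney between rats infused with aldosterone and control rats on the same diet. Its members were the 8 libraries, of 24 in the whole series, whose counts stand in the table of that experiment, 4 from aldosterone-infused rats and 4 from controls. Female Sprague-Dawley rats of 120 to 200 g ate a synthetic diet with 0.4% Na, for 7 days where the protocol gives a time. The aldosterone group carried osmotic minipumps that released 12 µg of the hormone per day. The age of the rats, the length of the infusion and whether controls carried pumps are not stated. The papilla of 1 kidney, the tip of the inner medulla, gave each library, and each of 2 batches held 2 rats of each group. Of the 36856 genes in the table, 17671 passed the filter on low counts and were tested.

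Aldosterone is the adrenal steroid that makes the distal nephron retain Na and secrete K. It binds the mineralocorticoid receptor, a transcription factor that raises the expression of the epithelial Na channel ENaC, of the Na,K-ATPase and of regulators such as the kinase SGK1. The enzyme 11-beta-hydroxysteroid dehydrogenase type 2 keeps glucocorticoids away from that receptor. The inner medulla holds the last stretch of the collecting duct, thin limbs, capillaries and interstitial cells, and its cells live in fluid rich in salt and urea, which they balance with organic osmolytes.

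The libraries held 24299000 to 30615000 counts with aldosterone and 26020000 to 30085000 in controls. Levels are given as normalised CPM, counts scaled to a common library size and corrected for library composition, and single values stand in the order of replicates 1 to 4, of which 1 and 2 belong to batch 1. Xist, the RNA of the inactive X chromosome in females, stood at 239 to 454 CPM in all 8 libraries, and the summed Y-linked genes at no more than 0.319 CPM, in keeping with the female label. The tissue markers were present: Aqp2, the water channel of collecting duct principal cells, stood at 4973 to 8055 CPM, and Slc14a2, which carries urea across the deep collecting duct, at 1096 to 1965 CPM. Slc12a1, the Na-K-2Cl cotransporter of the thick ascending limb, a segment outside the inner medulla, was also measured at up to 2018 CPM in all 8 libraries. In a piece of tissue, a change in the number of cells of a type and a change in the RNA per cell cannot be told apart.

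No gene passed the test between aldosterone and control: 0 of 17671 genes (0%) had an adjusted p under 0.05 (edgeR quasi-likelihood F test with batch as a term, Benjamini-Hochberg adjusted over all genes tested). The gene closest to the threshold was Prkcd, with an adjusted p of 0.0634, and the next 85 genes shared a value of 0.182. At an unadjusted p under 0.05, 1096 genes were higher with aldosterone (6.2%) and 654 lower (3.7%). All 4 aldosterone values lay above all 4 control values for 556 genes (3.15%) and below them for 344 (1.95%). Genes with a mean of at least 1 CPM, no overlap and at least a 2-fold difference numbered 126 higher and 6 lower. DESeq2's Wald test, which models the spread of each gene differently, called 299 genes higher (1.83% of 16300 with an adjusted p) and 74 lower (0.454%). Without control replicate 1 the count of lower genes at an unadjusted p under 0.05 was 1020. Where the median of a list is also given without 1 library, that value is the lowest or the highest found on leaving out each of the 8. In this text "higher" and "lower" compare measured levels. The ± after a log2 fold change is a standard error (SE) derived from the edgeR F statistic, as the absolute log2 fold change over the root of F.

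**Figure D1:**
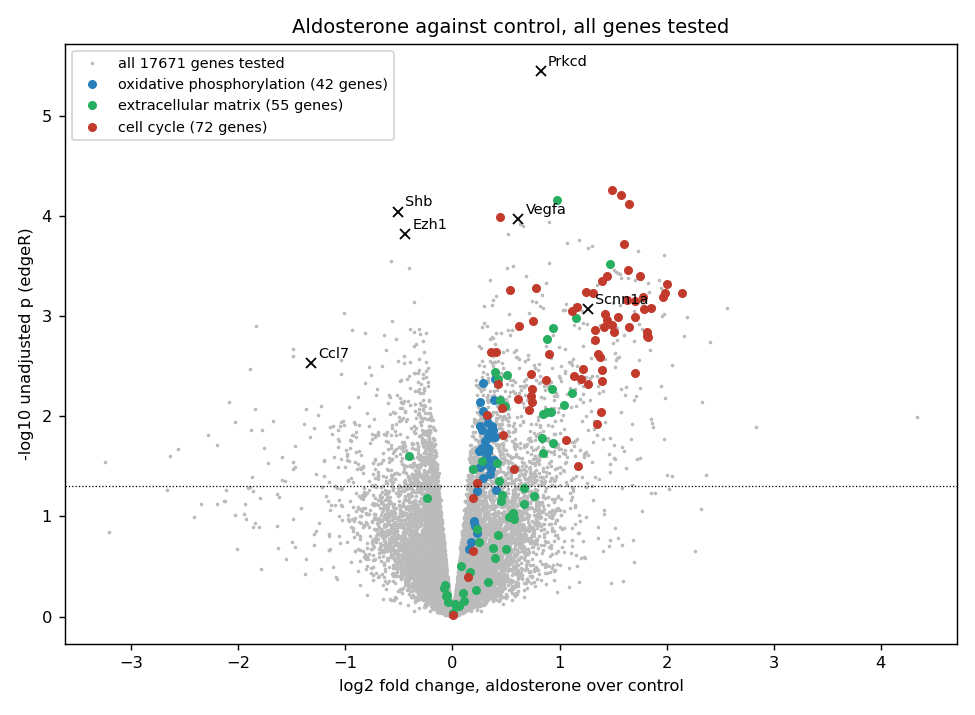
Each point is 1 of the 17671 genes tested, with its log2 fold change (aldosterone over control) on the x axis and -log10 of the unadjusted edgeR p on the y axis. The dotted line marks an unadjusted p of 0.05, red points are the 72 cell cycle genes, green the 55 matrix genes and blue the 42 genes of oxidative phosphorylation, and all red and blue points lie to the right of 0.

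Prkcd encodes protein kinase C delta, a kinase activated by diacylglycerol without calcium. Its level was 110, 108, 96.4 and 91.3 CPM with aldosterone and 64.7, 53.2, 54.1 and 56.2 CPM in controls. The groups were far apart in both batches, and the fold was 1.77 (log2 0.83 ± 0.08 SE, edgeR adjusted p = 0.0634). DESeq2 gave it an adjusted p of 6.88e-15, and edgeR without a filter one of 0.0185. The other 8 protein kinase C genes did not share its difference. Over the 9 measured members the median log2 fold change was -0.000988, against 0.00408 over all genes tested. Prkcd was the only one without overlap (against 3.15% of all genes above the controls). Prkcq, the theta isoform, had a log2 fold change of 0.45 ± 0.20, while Prkce, the epsilon isoform, and Prkcz, the zeta isoform, stood at -0.24 ± 0.14 and -0.13 ± 0.06.

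Genes of cell division were higher with aldosterone in every role of the cycle. All 72 members of the cell cycle list passed the filter and all had a positive log2 fold change, against 50.9% of all genes tested. The 4 aldosterone values lay above the 4 control values for 59 of the 72, against 3.15% of all genes, and 68 had an unadjusted p under 0.05 in that direction, against 6.2%. The median log2 fold change was 1.33, at 1.45 in batch 1 and 1.14 in batch 2. None of the 72 passed edgeR's adjusted threshold. DESeq2 called 58 of them higher, against 1.83% of all genes with a DESeq2 adjusted p. The summed level of the list was 1482, 1149, 1251 and 1639 CPM with aldosterone and 704, 820, 763 and 968 CPM in controls, with no overlap between the groups.

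Licensing and replication genes, which load the helicase on DNA and copy it in S phase, had a median log2 fold change of 0.76 over 24 members, and 15 of them did not overlap. Mcm2, a subunit of the replicative helicase, stood at 55.3, 38.8, 49.6 and 52.9 CPM with aldosterone and 33.3, 27.9, 29.3 and 37 CPM in controls (log2 0.62 ± 0.13). Mcm5, another subunit of that helicase, had a log2 fold change of 1.21 ± 0.30. Rrm1, the large subunit of ribonucleotide reductase, which makes deoxynucleotides, stood at 92.2, 86.9, 89.1 and 83.3 CPM against 65.6, 59.8, 65.6 and 66.5 CPM. Its difference was small beside those of the mitotic genes, at 0.45 ± 0.06 on the log2 scale, with little spread within either group. Uhrf1, which couples DNA methylation to replication, stood at 11.1, 7.45, 8.4 and 14.1 CPM with aldosterone and 1.31, 2.56, 1.97 and 4.86 CPM in controls (log2 1.98 ± 0.37). Pcna, the sliding clamp (log2 0.23 ± 0.10), Lig1, a DNA ligase (0.19 ± 0.09), and Pola1, a polymerase subunit (0.14 ± 0.16), had small differences and overlapped between the groups.

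Cyclins and their kinases, which drive the steps of the cycle, had a median of 1.50 over 8 members, and 7 did not overlap. Cdk1, the kinase that starts mitosis, stood at 15.7, 10.8, 14.7 and 19.9 CPM with aldosterone and 4.04, 5.37, 4.32 and 6.63 CPM in controls. That was a 2.98-fold difference (log2 1.58 ± 0.21, edgeR adjusted p = 0.182). Ccnb2, a B-type cyclin that activates Cdk1, stood at 12.6, 8.74, 9.18 and 20.1 CPM against 1.27, 3.57, 4.15 and 3.77 CPM (log2 2.01 ± 0.36). Among the 6 transcription factors of the cycle the median was 1.22, and E2f8, a repressor of the E2F family made in S phase, had a log2 fold change of 1.64 ± 0.28.

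The spindle, kinetochore and mitotic exit genes had a median of 1.47 over 34 members, and 33 did not overlap. Mki67, the common marker of dividing cells, stood at 37.3, 30.6, 32.5 and 51.7 CPM with aldosterone and 4.77, 11.5, 12.1 and 18.8 CPM in controls (log2 1.75 ± 0.31, edgeR adjusted p = 0.182). Top2a, the topoisomerase that untangles chromosomes, stood at 40.9, 29.3, 32.4 and 51.4 CPM against 4.33, 11.8, 12.2 and 18.4 CPM. Aldosterone replicate 4 was the highest library for both genes and control replicate 1 the lowest. Cdc20, an activator of the anaphase-promoting complex, stood at 16.8, 12.3, 12.6 and 19.8 CPM against 3.28, 4.37, 5.32 and 7.08 CPM (log2 1.65 ± 0.23). Nusap1, which bundles spindle microtubules, stood at 13.8, 12.4, 15.5 and 23.5 CPM against 3.39, 4.92, 6.79 and 8.74 CPM (log2 1.49 ± 0.20). Spc25, a kinetochore protein, had the largest fold of the list at a log2 of 2.15 ± 0.40. Cdc20, Cdk1 and Nusap1 each had an edgeR adjusted p of 0.0459 when genes were not filtered on low counts.

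**Figure D2:**
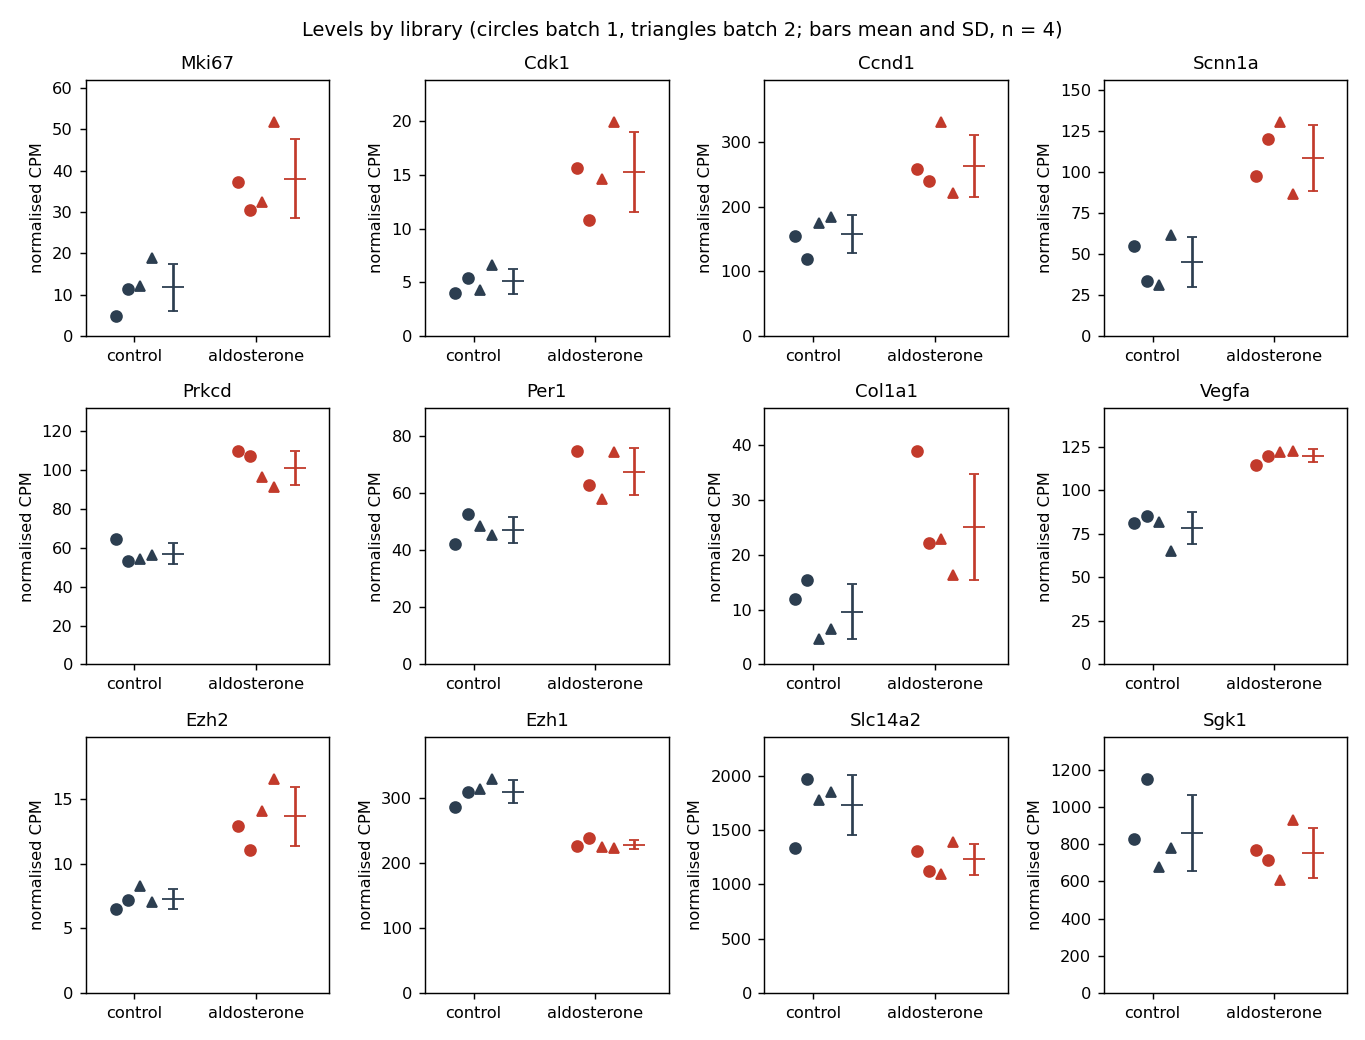
Each panel shows the normalised CPM of 1 gene in the 8 libraries, with circles for batch 1, triangles for batch 2 and bars for the mean and SD of 4 libraries. The groups do not overlap for Mki67, Cdk1, Ccnd1, Scnn1a, Prkcd, Per1, Col1a1, Vegfa, Ezh2 and Ezh1, while those of Slc14a2 and Sgk1 do.

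Promoters of cell cycle genes are known for a few short elements, so the 250 bases before the start of each gene were searched on both strands. RefSeq (GRCr8) gave this window for 57 of the 72 members and for 14321 of the 17671 genes tested. The elements were the CCAAT box (CCAAT), bound by NF-Y, the CHR element (TTTGAA or TTCGAA), bound by the MuvB complexes of late cell cycle genes, and the E2F site (TTCCCGC or TTGGCGC). The windows of 5 members with differences described above are shown as examples, picked after their values were seen, with every match to these elements in capitals. Of these, 4 hold both a CCAAT box and a CHR element, more often than the list as a whole, and Nusap1, which had the smallest p of the list, holds no CHR element. They are Cdk1 at chr20:19265043-19265292 on the plus strand, Ccnb2 at chr8:79981659-79981908 on the minus strand, Cdc20 at chr5:137255800-137256049 on the minus strand, Rrm1 at chr1:166235654-166235903 on the plus strand and Nusap1 at chr3:127057045-127057294 on the plus strand, each written 5′ to 3′ along its gene.
Cdk1: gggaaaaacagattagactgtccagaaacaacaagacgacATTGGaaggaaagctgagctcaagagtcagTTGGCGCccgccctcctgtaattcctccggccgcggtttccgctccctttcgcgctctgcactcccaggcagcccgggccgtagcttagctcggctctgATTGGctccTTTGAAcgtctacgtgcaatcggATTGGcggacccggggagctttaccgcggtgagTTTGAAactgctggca
Ccnb2: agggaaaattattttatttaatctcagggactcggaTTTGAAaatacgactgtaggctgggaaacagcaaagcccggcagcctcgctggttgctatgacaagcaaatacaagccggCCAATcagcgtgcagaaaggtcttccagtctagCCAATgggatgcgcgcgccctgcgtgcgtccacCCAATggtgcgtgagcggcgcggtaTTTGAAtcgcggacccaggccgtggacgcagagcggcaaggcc
Cdc20: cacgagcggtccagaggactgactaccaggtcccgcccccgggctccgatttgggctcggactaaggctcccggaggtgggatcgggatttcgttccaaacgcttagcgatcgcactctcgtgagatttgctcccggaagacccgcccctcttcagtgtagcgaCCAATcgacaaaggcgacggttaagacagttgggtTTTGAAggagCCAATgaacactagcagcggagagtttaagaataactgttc
Rrm1: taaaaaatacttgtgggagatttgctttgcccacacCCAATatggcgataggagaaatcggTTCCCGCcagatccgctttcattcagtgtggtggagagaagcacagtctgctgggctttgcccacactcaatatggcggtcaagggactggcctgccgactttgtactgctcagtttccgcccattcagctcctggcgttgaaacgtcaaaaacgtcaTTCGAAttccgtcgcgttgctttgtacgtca
Nusap1: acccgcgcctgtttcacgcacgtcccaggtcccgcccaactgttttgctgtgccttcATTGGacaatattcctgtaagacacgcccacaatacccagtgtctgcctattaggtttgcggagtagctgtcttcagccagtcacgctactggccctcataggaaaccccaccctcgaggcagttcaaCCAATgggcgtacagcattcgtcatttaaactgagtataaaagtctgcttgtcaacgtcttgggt

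Cdk1 and Ccnb2 each held 3 CCAAT boxes and 2 CHR elements, with 1 CHR element 16 bases before the start in Cdk1 and 43 bases before it in Ccnb2. Cdc20 held 2 CCAAT boxes and 1 CHR element, Rrm1 held 1 of each kind of element, and Nusap1 held 2 CCAAT boxes. A CCAAT box was found in 70.2% of the cell cycle windows and 34.8% of the windows of all genes tested, and a CHR element in 36.8% and 13.1%. Both elements together were found in 31.6% against 4.85%, and an E2F site in 24.6% against 8.27%. The roles differed in these shares: the spindle group held a CHR element in 51.7% and an E2F site in 10.3%, the replication group in 15% and 40%. A CCAAT box read on the other strand can overlap an E2F site. The half-site of corticosteroid receptors (AGAACA) was found in 8.77% of the cell cycle windows and 12.4% of all windows. The full palindrome of that site was found in 0 of 57 cell cycle windows and 1 of 14321 in all. Among the corticosteroid-induced genes, the half-site and the palindrome were each found in 0 of 19 windows. These shares therefore cannot tell genes that respond to corticosteroids from other genes. A match describes the sequence and shows no binding. The CCAAT, CHR and E2F elements were chosen as known for such promoters. Their shares therefore describe the genes of the list and say nothing about aldosterone.

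The G1 cyclins and the inhibitors of the cycle, which set whether a cell enters it, had a median log2 fold change of 0.14 over 15 measured members (-0.0121 without aldosterone replicate 3). The 5 D-type cyclins and their kinases all lay above 0, around a median of 0.24, while of the 10 inhibitors and pocket proteins 3 lay above 0 and 7 below, around a median of -0.11. Ccnd1, the D-type cyclin that growth signals induce, stood at 259, 239, 331 and 221 CPM with aldosterone and 154, 119, 175 and 184 CPM in controls, without overlap (log2 0.74 ± 0.14). Cdkn2c, an inhibitor of the kinases that D-type cyclins activate, was 12.8, 12.4, 12.8 and 18.1 CPM against 5.32, 6.86, 5.12 and 7.31 CPM (log2 1.18 ± 0.18). Cdkn1a, the p21 inhibitor that p53 induces, overlapped at 12.9 to 18.9 CPM against 9.37 to 17.8 CPM (log2 0.26 ± 0.22). Cdkn1b, the p27 inhibitor of resting cells, had a log2 fold change of -0.32 ± 0.14, and Btg1, an antiproliferative factor, one of -0.26 ± 0.08. Of 26 measured growth factors, their receptors and immediate early genes, Pdgfrb had an unadjusted p under 0.05 in the higher direction and Met in the lower (against 6.2% and 3.7% of all genes), with a median of 0.08 over the list. Pdgfrb, the platelet-derived growth factor receptor of mesenchymal cells, had a log2 fold change of 0.77 ± 0.31, and Myc, a growth-induced transcription factor, one of 0.49 ± 0.24.

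Genes outside that list with the smallest p-values or largest folds included others that are active in dividing cells. Tcf19, a factor expressed at the G1/S boundary, stood at 28.2, 24.3, 27.5 and 29.6 CPM with aldosterone and 16.1, 18.5, 18.9 and 17.3 CPM in controls (log2 0.63 ± 0.09). The largest folds by the rule for named genes were those of low transcripts. Arhgef39, a guanine nucleotide exchange factor, stood at 1.42 to 3.6 CPM against 0.146 to 0.791 CPM (log2 2.19 ± 0.44), and Ube2t, a ubiquitin-conjugating enzyme of DNA repair, at 1.44 to 3.3 CPM against 0.182 to 1.06 CPM (2.16 ± 0.47). Dtl, which directs replication factors to degradation, stood at 3.03 to 5.39 CPM against 0.401 to 2.79 CPM (2.05 ± 0.50). Dpp7, a lysosomal dipeptidase, had a smaller and tighter difference, at 68.1 to 73.6 CPM against 43.9 to 56.2 CPM (0.52 ± 0.08).

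The catalytic subunits of polycomb repressive complex 2, which methylates histone H3 to silence genes, stood apart in opposite directions. Ezh2, the subunit typical of dividing cells, stood at 12.9, 11.1, 14.1 and 16.5 CPM with aldosterone and 6.52, 7.21, 8.3 and 7.01 CPM in controls (log2 0.90 ± 0.13). Ezh1, its paralog typical of resting cells and the more abundant of the pair here, stood at 226, 239, 225 and 223 CPM against 286, 309, 314 and 328 CPM (log2 -0.44 ± 0.07). Neither gene overlapped between the groups, a condition of the rule for the smallest p-values that named both. Each had an edgeR adjusted p of 0.182. The 9 core and accessory subunits had a median of -0.05 and overlapped, including Phf19, an accessory subunit (-0.35 ± 0.17). Over the whole list 1 of 11 members had an unadjusted p under 0.05 in each direction, against 6.2% of all genes higher and 3.7% lower.

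Corticosteroid-induced genes showed scattered differences. The median was 0.17 over 22 measured members, of which 16 lay above 0 and 3 had no overlap between the groups (against 3.15% of all genes). That median was 0.0545 without aldosterone replicate 3 and 0.28 without control replicate 1. Per1, the clock gene that aldosterone induces in collecting duct cells, stood at 74.7, 63, 58 and 74.4 CPM with aldosterone and 42, 52.6, 48.5 and 45.1 CPM in controls (log2 0.52 ± 0.11). Usp2, a ubiquitin protease with an aldosterone-induced isoform, stood at 40, 47, 45 and 55 CPM against 33.7, 16.9, 25.9 and 25.5 CPM (0.87 ± 0.20). Pdk4, a kinase that limits glucose oxidation, was the other member without overlap (0.58 ± 0.15).

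Other classical targets overlapped. Sgk1, the kinase that keeps ENaC at the cell surface, stood at 766, 713, 605 and 929 CPM with aldosterone and 831, 1149, 677 and 777 CPM in controls (log2 -0.17 ± 0.18). Tsc22d3, which encodes the leucine zipper protein GILZ, had a log2 fold change of -0.33 ± 0.14 and Fkbp5, a co-chaperone of steroid receptors, one of 0.21 ± 0.18. Zbtb16, which encodes the repressor PLZF and responds to corticosteroids, stood at 58.4, 66.9, 46.8 and 35.2 CPM against 112, 28.7, 36.4 and 41.9 CPM. Its log2 fold change of -0.05 ± 0.35 was 0.47 without control replicate 1, the library at 112 CPM. The clock list as a whole had a median of 0.02 over 19 members. Per1 was the only one without overlap (against 3.15% of all genes above the controls), and Bhlhe40, a clock repressor, stood at 0.36 ± 0.24.

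The receptors and the genes of the angiotensin system overlapped between the groups in all 10 measured members. Their median of 0.25 was 0.0437 without aldosterone replicate 3. Nr3c2, the mineralocorticoid receptor, stood at 82.1, 74.4, 85.5 and 99 CPM with aldosterone and 98.4, 78.6, 98.7 and 90.1 CPM in controls (log2 -0.11 ± 0.09). Nr3c1, the glucocorticoid receptor, had a log2 fold change of 0.04 ± 0.11. Hsd11b2, the enzyme that inactivates glucocorticoids, stood at 866, 472, 818 and 771 CPM against 635, 350, 399 and 640 CPM (0.53 ± 0.25). Agtr1b, an angiotensin II receptor, had a log2 fold change of 0.83 ± 0.48 at 0.636 to 3.2 CPM.

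Among Na, K and Cl transport genes the alpha subunit of ENaC stood furthest apart. Its gene Scnn1a stood at 97.7, 120, 130 and 86.7 CPM with aldosterone and 55.1, 33.6, 31.2 and 61.6 CPM in controls. No control reached the lowest aldosterone library, and the fold was 2.40 (log2 1.26 ± 0.25, edgeR adjusted p = 0.182, DESeq2 adjusted p = 0.000131). The other two subunits overlapped. Scnn1b, the beta subunit, stood at 81.8, 64.7, 47.6 and 71.4 CPM against 80.9, 46.8, 51.7 and 78.4 CPM (0.04 ± 0.22), and Scnn1g, the gamma subunit, had a log2 fold change of -0.13 ± 0.25.

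Of the 28 transport genes, 5 had an unadjusted p under 0.05 in the higher direction (against 6.2% of all genes), among them Scnn1a, Klhl3, Atp1b1 and Kcnj16, and 1 in the lower (Cul3, against 3.7%). The aldosterone values of 3 lay above the controls without overlap (against 3.15%), and the median was 0.09 (0.0366 without aldosterone replicate 3 and 0.17 without aldosterone replicate 1). Klhl3, the adaptor that directs WNK kinases to degradation, stood at 46.4, 35.6, 42.3 and 49.8 CPM with aldosterone and 35.3, 30.6, 33.8 and 27.4 CPM in controls (log2 0.45 ± 0.13). Atp1b1, the beta subunit of the Na,K-ATPase, had a log2 fold change of 0.31 ± 0.10. Of the thick ascending limb markers measured beside them, all 7 lay above 0, around a median of 0.69 (0.35 without aldosterone replicate 3), and their summed level was 2851 to 6328 CPM with aldosterone and 1402 to 3406 CPM in controls. Their part in the transport genes' differences was not tested.

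Genes of water and urea transport and of the response to tonicity lay mostly below 0, and all overlapped between the groups. Of 9 water and urea transport genes 7 lay below 0, against 49.1% of all genes, around a median of -0.13 that was -0.0431 without control replicate 1. Of 8 osmolyte and tonicity genes 6 lay below 0, namely 3 of 4 osmolyte enzymes and carriers and 3 chaperones. Their median of -0.26 was -0.11 without aldosterone replicate 1 and -0.40 without aldosterone replicate 2. Slc14a2 stood at 1310, 1125, 1096 and 1387 CPM with aldosterone and 1335, 1965, 1771 and 1852 CPM in controls, where control replicate 1 alone lay within the range of the aldosterone group (log2 -0.49 ± 0.14). Aqp2 had a log2 fold change of -0.16 ± 0.18 and Avpr2, the vasopressin receptor that controls both proteins, one of -0.15 ± 0.09.

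Akr1b1, the aldose reductase that makes sorbitol and one of a family of close copies, stood at 2382, 4248, 3813 and 3169 CPM with aldosterone and 3873, 5906, 4621 and 4536 CPM in controls (log2 -0.48 ± 0.21). Nfat5, the transcription factor that responds to tonicity, stood at 391 to 542 CPM against 378 to 503 CPM (0.01 ± 0.13). Of 14 heat shock genes 11 were negative, with a median of -0.12, and 4 had an unadjusted p under 0.05 in that direction (Hspa1a, Hspa1b, Hspb1 and Dnaja1, against 3.7% of all genes). Hspa1a and Hspa1b, inducible HSP70 genes that are near-identical copies, so that their separate values are uncertain, had log2 fold changes of -0.52 ± 0.19 and -0.46 ± 0.13, and both are also among the 3 chaperones above. Markers of principal cells measured beside them had a median of -0.13 over 9 members, and their part in these values was not tested. Gata3, a transcription factor of these cells, had the member value furthest below 0 (-0.45 ± 0.19).

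**Figure D3:**
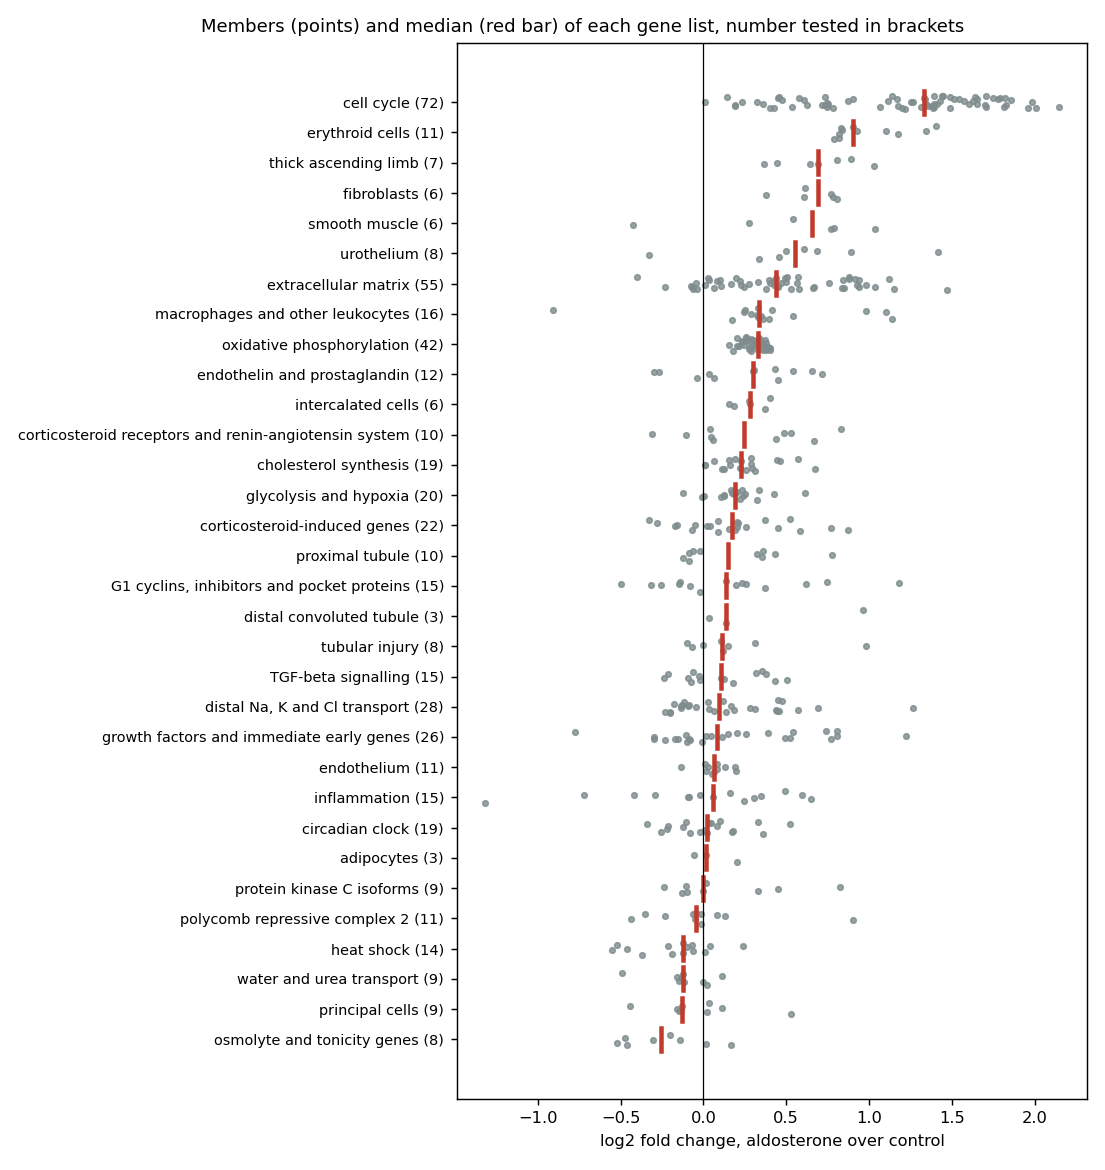
Each row is 1 gene list, with the log2 fold change (aldosterone over control) of every member tested as a point and the median as a red bar, and lists are ordered by median. The cell cycle list lies furthest to the right, with a median of 1.33 and all 72 members above 0, and the osmolyte list lowest, with a median of -0.26.

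Matrix genes were mostly higher, with more overlap between the groups than the cell cycle genes had. Of 55 measured members 48 lay above 0, 23 had an unadjusted p under 0.05 in that direction (against 6.2% of all genes) and 7 did not overlap (against 3.15%). The median of 0.44 was 0.25 in batch 1, 0.58 in batch 2 and 0.28 without aldosterone replicate 3. DESeq2 called 11 of them higher, against 1.83% of all genes with a DESeq2 adjusted p. Col1a1, a chain of type I collagen, stood at 39, 22.2, 22.9 and 16.3 CPM with aldosterone and 12, 15.5, 4.65 and 6.56 CPM in controls (log2 1.47 ± 0.25). Col3a1, of type III collagen, stood at 58.4, 38, 35.9 and 28.6 CPM against 23.6, 34.7, 10.2 and 11.1 CPM, where control replicate 2 lay above the lowest aldosterone library (1.15 ± 0.23). Col6a3, a chain of type VI collagen, stood at 23, 19.6, 18.9 and 16.6 CPM against 12.9, 11.6, 7.13 and 8.7 CPM (0.98 ± 0.13). For all 3 the lowest controls belonged to batch 2. Timp3, a matrix-bound inhibitor of metalloproteinases and the most abundant member, went the other way, at 2109 to 3038 CPM against 2215 to 4297 CPM (-0.40 ± 0.15), and the summed matrix level overlapped.

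Of 15 measured genes of TGF-beta signalling, a pathway that induces matrix, 1 had an unadjusted p under 0.05 in the higher direction (against 6.2% of all genes), and the median was 0.11 (-0.00578 without aldosterone replicate 3). Tgfb2, a ligand, stood at 20.7, 15.2, 11.6 and 12.7 CPM with aldosterone and 10.3, 10.8, 11.4 and 11.5 CPM in controls, and its log2 fold change of 0.43 ± 0.17 was 0.75 in batch 1 and 0.09 in batch 2. Tgfb1, the best known ligand, had a log2 fold change of 0.32 ± 0.17, and Smad3, which carries the signal to the nucleus, one of 0.18 ± 0.09. All 6 measured fibroblast markers lay above 0, around a median of 0.69 (0.22 in batch 1, 1.15 in batch 2 and 0.33 without aldosterone replicate 3). Their summed level was 308, 256, 249 and 98.4 CPM with aldosterone and 281, 164, 86.8 and 107 CPM in controls. Of 6 smooth muscle markers 5 lay above 0, around a median of 0.65: Tagln, an actin-binding protein, stood at 1.04 ± 0.30 and Acta2, smooth muscle actin, at 0.54 ± 0.35. The part of these cells in the matrix genes' differences was not tested.

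Nuclear genes of oxidative phosphorylation showed small differences in 1 direction. The log2 fold changes of all 42 lay between 0.15 and 0.40 around a median of 0.33, and 34 had an unadjusted p under 0.05 (against 6.2% of all genes). The aldosterone values lay above the controls without overlap for 5 (Ndufs7, Ndufa1, Atp5f1a, Atp5f1b and Atp5f1c, against 3.15%). The count of 34 was 21 without aldosterone replicate 2, 19 without aldosterone replicate 3 and 20 without control replicate 2 or 4. Cyc1, cytochrome c1 of complex III, averaged 283 ± 37.6 CPM in the aldosterone group and 215 ± 30.2 CPM in the control group (SD, n = 4 each; log2 0.40 ± 0.10). Ndufs7, a subunit of complex I, stood at 99.9, 94.8, 101 and 88.2 CPM against 84.4, 75.4, 82.1 and 73.3 CPM (0.29 ± 0.07). DESeq2 called 1 of the 42, Cyc1, against 1.83% of all genes with a DESeq2 adjusted p. The summed list was lowest within each group in replicate 4, at 10752 CPM among the aldosterone and 8431 CPM among the control libraries, the libraries in which the thick ascending limb markers were also lowest, at 2851 and 1402 CPM. The endothelial, erythroid and leukocyte sums were also lowest within each group in replicate 4. Control replicate 1 had the highest control sum of oxidative phosphorylation genes, at 11361 CPM. Its thick ascending limb sum of 3134 CPM was below the 3406 CPM of control replicate 2. The thick ascending limb is rich in mitochondria, and its part in the difference was not tested.

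Of 20 genes of glycolysis and hypoxia 18 were positive (against 50.9% of all genes), with a median of 0.19, and 9 had an unadjusted p under 0.05 in that direction (against 6.2%). Vegfa, the growth factor that maintains capillaries and that hypoxia induces, stood at 114, 119, 122 and 123 CPM with aldosterone and 81.4, 85.3, 81.5 and 65 CPM in controls (log2 0.61 ± 0.09, edgeR adjusted p = 0.182). Tpi1, triosephosphate isomerase, had a log2 fold change of 0.42 ± 0.10. The endothelial markers measured beside them had a median of 0.07 over 11 members, and Flt1, a receptor of VEGF, stood at 0.20 ± 0.13. All 19 genes of cholesterol synthesis and uptake were positive, with a median of 0.22 (0.13 without aldosterone replicate 3 and 0.37 without control replicate 1), and 2 had an unadjusted p under 0.05 (against 6.2% of all genes). These were Lss, lanosterol synthase, which stood at 60.3, 54.1, 55.5 and 51.3 CPM against 40.7, 31.7, 39.1 and 37.5 CPM (0.57 ± 0.10), and Hmgcs1, an early enzyme of the pathway (0.67 ± 0.23).

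Endothelin and prostaglandin genes, local regulators of medullary Na excretion and blood flow, had a median of 0.30 over 12 members (0.14 without aldosterone replicate 3). Ptgds, a prostaglandin D synthase, stood at 15.4 to 21 CPM with aldosterone and 12.1 to 15.3 CPM in controls (log2 0.43 ± 0.13), and Hpgd, which degrades prostaglandins, at 0.71 ± 0.32. Inflammation genes had a median of 0.06 over 15 members and tubular injury genes one of 0.11 over 8. Ccl7, a chemokine that attracts monocytes, was lower, at 8.37, 5.46, 3.17 and 6.23 CPM against 9.36, 15.1, 15.3 and 17.7 CPM (log2 -1.32 ± 0.32). Nfkb2, a subunit of NF-kappaB, stood at 0.31 ± 0.11 and Icam1, an adhesion molecule, at 0.16 ± 0.10. Of the injury markers, Lcn2, a secreted siderophore-binding protein, stood at 7.8, 7.05, 7.82 and 24.9 CPM against 6.12, 6.37, 9.44 and 0.49 CPM, so that its log2 fold change of 0.98 ± 0.75 rested on replicate 4 of each group. Vim, vimentin, stood at 0.31 ± 0.15.

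Markers of several other cell types were higher with aldosterone. Erythroid markers, a sign of blood in the tissue, had a median of 0.91 with all 11 members above 0. Of them 10 had an unadjusted p under 0.05 (against 6.2% of all genes) and 3 did not overlap (Hba-a3, Hemgn and Epb42, against 3.15%). DESeq2 called 5, against 1.83% of all genes with a DESeq2 adjusted p. Their summed level was 2950, 3974, 2629 and 1585 CPM with aldosterone and 1246, 1957, 1749 and 1032 CPM in controls, so that 1 aldosterone library lay within the control range. Hbb-bs, a beta globin gene whose near-identical copies make its own value uncertain, stood at 1.10 ± 0.26. Of the leukocyte markers 15 of 16 lay above 0, and their median was 0.34 (-0.26 in batch 1, 0.97 in batch 2 and 0.12 without aldosterone replicate 3). Their summed level was 151 to 239 CPM against 78.5 to 156 CPM. Cd74, the invariant chain of MHC class II, was the most abundant member and stood at 1.14 ± 0.24. In batch 1 the sums were 184 and 207 CPM with aldosterone and 156 and 155 CPM in controls. Cd74 alone gave 95.6 and 117 CPM of these with aldosterone and 52.5 and 48.4 CPM in controls. Within its group, aldosterone replicate 4 had the highest summed level of the cell cycle and intercalated cell lists and the lowest of the erythroid, fibroblast, leukocyte and thick ascending limb lists. Control replicate 4 likewise had the highest cell cycle sum of its group (968 CPM). Its erythroid (1032 CPM), leukocyte (78.5 CPM) and thick ascending limb (1402 CPM) sums were the lowest among controls. Its intercalated cell and fibroblast sums lay within the range of the other controls. Whether any of these cells take part in the cell cycle difference was not tested.

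**Figure D4:**
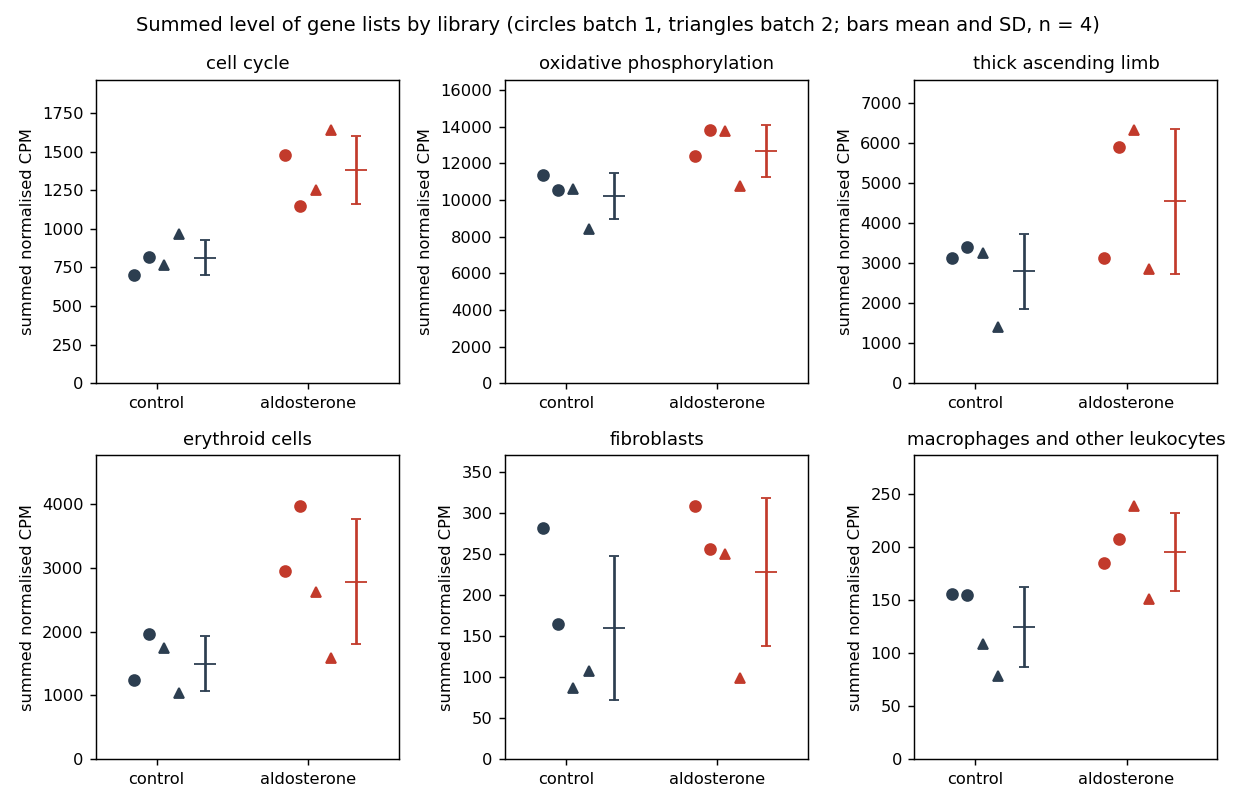
Each panel shows the summed normalised CPM of a gene list in the 8 libraries, with circles for batch 1, triangles for batch 2 and bars for the mean and SD of 4 libraries. The cell cycle sums do not overlap between the groups (1149 to 1639 against 704 to 968 CPM), and those of the other 5 lists do.

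Umod, uromodulin of the thick ascending limb, had a log2 fold change of 1.03 ± 0.37, and Cldn16, a tight junction protein of the same segment, one of 0.64 ± 0.19. The 6 intercalated cell markers lay above 0, around a median of 0.28 (Atp6v0d2, a proton pump subunit, 0.37 ± 0.16), as did 3 distal convoluted tubule markers, around a median of 0.13 (Calb1, calbindin, 0.97 ± 0.49). Urothelial markers had a median of 0.55 over 8 members (1.23 in batch 1, -0.24 in batch 2, 0.28 without control replicate 1 and 0.97 without control replicate 4). Their summed level, with Psca the most abundant member, went the other way and overlapped, at a mean of 421 CPM with aldosterone and 467 CPM in controls. Tp63, the factor of basal urothelial cells, stood at 5.82, 9.67, 4.1 and 4.23 CPM against 3.42, 2.53, 2.81 and 3.5 CPM (0.89 ± 0.28). Proximal tubule markers had a median of 0.15 over 10 members, with Slc22a6, an organic anion transporter, at 0.78 ± 0.54. Adipocyte markers had a median of 0.01 over 3, with Adipoq, adiponectin, at 0.20 ± 0.36. Of the neutrophil list and the nerve list, 2 members each passed the filter.

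Genes lower with aldosterone were fewer and their folds mostly under 2. Shb, an adaptor of receptor tyrosine kinases, had the smallest p of that direction, at 125, 130, 98.1 and 116 CPM with aldosterone and 173, 183, 162 and 149 CPM in controls (log2 -0.51 ± 0.07, edgeR adjusted p = 0.182). Jund, a subunit of the AP-1 transcription factor that restrains growth in several cell types, stood at 243, 225, 237 and 224 CPM against 278, 297, 275 and 301 CPM (-0.31 ± 0.07). Ndrg4, of a family tied to differentiation, stood at 218 to 245 CPM against 278 to 339 CPM (-0.39 ± 0.08). These 3 differences were under 1.5-fold. Ranges were narrow in both groups for Jund, while Shb ran from 98.1 to 130 CPM with aldosterone and Ndrg4 from 278 to 339 CPM in controls.

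Smkr1, a small protein of little known function (-0.58 ± 0.10), Gprasp1, which sorts receptors to lysosomes (-0.40 ± 0.07), Lgalsl, a galectin-related protein (-0.36 ± 0.07), and Pcdh7, a protocadherin (-0.56 ± 0.12), completed the genes with small p-values. The larger folds were those of Pcdh9, another protocadherin, at 2.8, 2.21, 3.97 and 2.88 CPM against 5.17, 4.71, 5.82 and 8.33 CPM (-1.01 ± 0.20), and Padi2, an arginine deiminase of proteins, at 22.9, 14.3, 26.5 and 20.5 CPM against 47.8, 29, 40.8 and 43.3 CPM (-0.94 ± 0.20). Pcdhga8, of the gamma protocadherin cluster, whose members share exons so that its own value is uncertain, stood at -0.82 ± 0.21. Rac3, a small GTPase, stood at -0.72 ± 0.20 and Tdrd9, a helicase of germ cells, at -0.70 ± 0.19.

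The inner medulla was also sequenced from rats on a low-salt diet (0.01 to 0.02% Na), which raises the body's own aldosterone, and from rats on 0.4% Na. The low-salt and 0.4% Na kidney libraries had Xist at no more than 0.0913 CPM and Y-linked genes at 208 to 275 CPM, against their female label. Sex as read from these genes and the experiment therefore cannot be told apart in this comparison. The difference between the aldosterone response and the low-salt response was tested as an interaction over these 16 libraries. It passed for 5 genes in the positive direction (0.0264% of 18938) and 5 in the negative (0.0264%), and DESeq2 called 371 and 286. Leaving out 1 library gave 0 to 41 positive and 0 to 26 negative calls, with the highest count in both directions without 0.4% Na replicate 4. The genes were Col6a3, Rrm1, H2az1, Shisa2 and Srxn1 in the positive direction and Gmcl1, Itpr1, Plscr2, Ssh2 and Usp53 in the negative, of which Col6a3 and Rrm1 belong to the lists above. Col6a3 was higher with aldosterone as given above, and on low salt it stood at 10.1, 9.41, 8.81 and 8.8 CPM against 14.3, 14.2, 11.9 and 10.4 CPM on 0.4% Na (log2 -0.44 ± 0.10). The responses differed by 1.40 ± 0.16 on the log2 scale (edgeR adjusted p = 0.0123). Rrm1 stood at 62.3, 58.3, 56.7 and 57.4 CPM on low salt against 63.7, 69.3, 63.6 and 61.2 CPM, and its responses differed by 0.57 ± 0.08 (edgeR adjusted p = 0.0292). Leaving out 1 of the 16 libraries gave edgeR adjusted p-values of 0.00985 to 0.0668 for Col6a3 and 0.0219 to 0.0949 for Rrm1, and the replicate number as a block one of 0.066 for each.

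The cell cycle list had a median of -0.27 on low salt, with 12 of 72 members positive (against 49.3% of 18449 genes tested there) and 1, Tyms, called (against 2.46%). Mki67 had a low-salt log2 fold change of -0.50 ± 0.42, Prkcd one of -0.04 ± 0.12, Vegfa one of -0.03 ± 0.14 and Ezh2 one of -0.07 ± 0.14. Their differences from the aldosterone response had edgeR adjusted p-values of 0.103, 0.0590, 0.145 and 0.0648. Corticosteroid-induced genes had a median of 0.41 on low salt, with 6 of 22 called (against 2.46%). Zbtb16 stood at 2.34 ± 0.16 on low salt and Scnn1a at 2.66 ± 0.25, and their differences from the aldosterone response were -2.41 (edgeR adjusted p = 0.0590) and -1.42 (0.111).

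**Figure D5:**
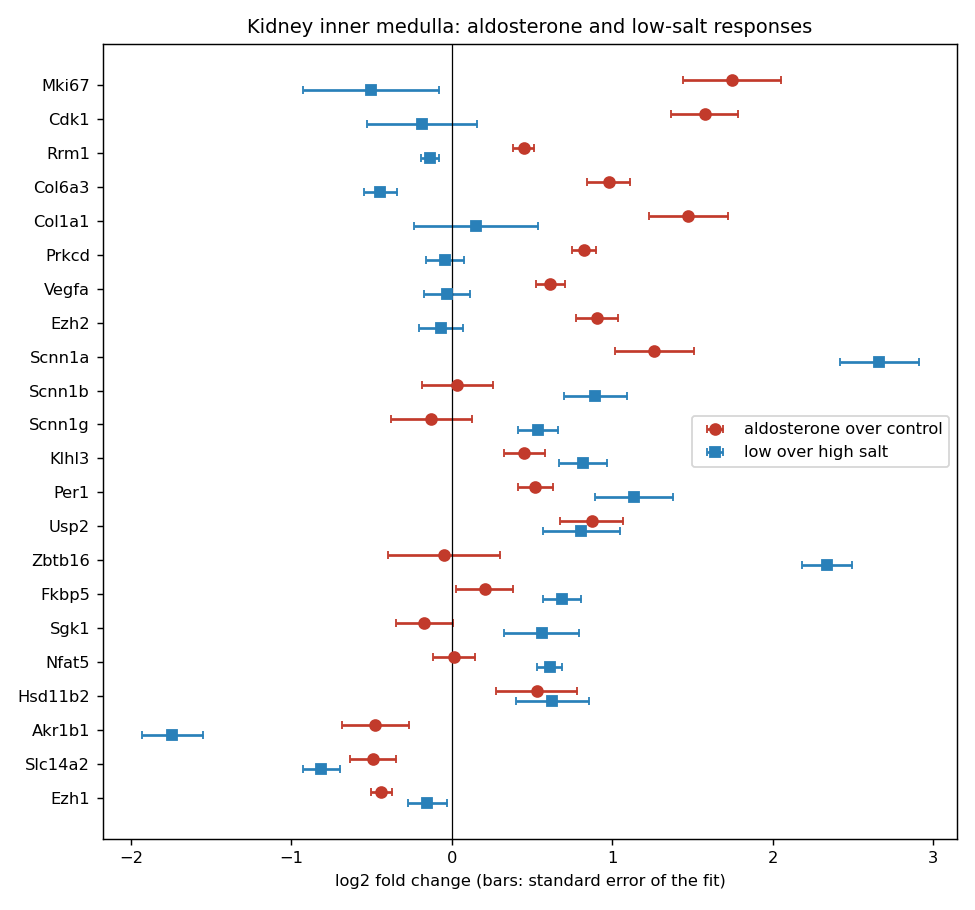
Log2 fold changes of 22 named genes with aldosterone over control (red circles) and on low salt over 0.4% Na, titled high salt (blue squares). Each comes from the fit of its own experiment, and bars are standard errors derived from the edgeR F statistic. Mki67, Cdk1, Col6a3 and Prkcd lie above 0 with aldosterone. On low salt Col6a3 (-0.44 ± 0.10) and Mki67 (-0.50 ± 0.42) lie below 0, while the bars of Cdk1 (-0.19 ± 0.34) and Prkcd (-0.04 ± 0.12) span 0. Scnn1a, Klhl3, Per1 and Usp2 lie above 0 in both.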

How the data were processed

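Messenger RNA of 8 kidney papilla libraries (TruSeq Stranded mRNA, single-end 50-cycle NovaSeq X Plus runs, per the labels' protocols) was analysed. The values the authors deposited are expected counts, an estimate of the reads per gene with decimals. Salmon, Trimmomatic, MultiQC and bcl2fastq 2.19 are named in the submitters' processing notes; the genome build and annotation are not given in the sources used. Reads shared by close gene copies are split by estimation. All 36856 symbols occur in the RefSeq table of GRCr8, used for names and promoter windows.

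Expected counts were rounded and fitted with edgeR 4.0.16 in R 4.3.3: filterByExpr with a minimum count of 10, TMM scaling, batch as a term, quasi-likelihood F test, Benjamini-Hochberg adjustment over 17671 genes, threshold 0.05. Levels are CPM after TMM. The interaction used 16 kidney libraries with table and batch intercepts. The labels report 4 rats per treatment. A pair of libraries of 1 group differed by chi-square values per gene of 36.0 to 63.6, so none was a duplicate. The procedure was tested on simulated data. Counting error at 1 CPM rests on at least 24 counts.

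Alternatives were DESeq2 1.42.0, limma 3.58.1 voom, DESeq2 size factors, upper quartile scaling, no filter, 1 CPM in 4 libraries, no batch term, each batch alone, the replicate number as a block, the spread of 16 libraries and each library left out. Named genes were, at 1 CPM or more without overlap, the 10 smallest p-values and the 6 largest folds (unadjusted p under 0.01) in each direction, the 2 smallest p-values of each list in the direction of its median (1 for a cell type list), a set of corticosteroid, transport, cell cycle and matrix genes, and those with a called interaction. Other genes given, such as Top2a, Mcm5, Lig1, Pola1, E2f8, Pdk4, Atp1b1, Btg1, Timp3, Prkcq and Slc12a1, and those listed by name alone, were chosen after their values were seen. The members, the 34 lists and the tests were chosen with earlier results of these data known, and no list was tested. Some results are not reported here.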

Additional observations from a re-analysis of the deposited data

Results flagged for a closer look

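A library far from the other 3 of its group was looked for in 118 genes named with values, in 236 groups of 4, and found 11 times, where chance flags about 1 in 20 groups. The highest libraries were aldosterone replicate 2 for Adipoq (10.6 CPM), Ezh1 (239 CPM) and RT1-Bb (13.6 CPM), aldosterone replicate 4 for Cdkn2c (18.1 CPM) and Lcn2 (24.9 CPM), control replicate 1 for Zbtb16 (112 CPM), and control replicate 3 for RT1-Bb (7.23 CPM) and RT1-Db1 (7.06 CPM). The lowest were control replicate 4 for Adipoq (2.52 CPM), control replicate 2 for Rrm1 (59.8 CPM) and aldosterone replicate 1 for RT1-DMb (14.1 CPM).

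The responses to aldosterone and to low salt differed by the interaction test in the positive direction for Col6a3 (1.40 on the log2 scale), Rrm1 (0.57), H2az1 (0.51), Shisa2 (2.43) and Srxn1 (2.30). The difference was negative for Gmcl1 (-0.86), Itpr1 (-0.55), Plscr2 (-0.59), Ssh2 (-1.25) and Usp53 (-0.96). Sex-linked genes also differed between these experiments, as given in the report.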

How the results depend on the processing

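The counts of genes past edgeR's adjusted threshold stayed at 0 in both directions with limma voom, DESeq2 size factors, upper quartile scaling, 1 CPM in 4 libraries, no batch term, batch 2 alone and the replicate block. Higher genes numbered 299 with DESeq2, 4 with no filter (Cdc20, Cdk1, Nusap1 and Prkcd), 1 in batch 1 alone (Eef1a1l1) and 5 with the spread of 16 libraries (Col6a3, Dpp7, Ezh2, Prkcd and Rrm1). Lower genes numbered 74 with DESeq2, and 0 to 2 with 1 library left out, the 2 without aldosterone replicate 4. At an unadjusted p under 0.05, 662 genes were higher and 300 lower in batch 2 alone, 337 lower in batch 1 alone, 1042 lower with the spread of 16 libraries, and 444 to 1020 lower with 1 library left out, the most without control replicate 1. Differences from low salt numbered 371 positive and 286 negative with DESeq2, 27 and 25 with no filter, 0 and 0 without the batch term and 0 and 0 with the replicate block. With 1 library left out they ranged from 0 to 41 and from 0 to 26, and moved beyond 1.5 times the 5 found for every library left out in at least 1 direction; the causes were not tested.

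Of the genes named, the log2 fold change reversed in batch 1 alone for Agtr1b (-0.0392), Icam1 (-0.0336), Nr3c1 (-0.0375) and Scnn1g (0.17), and in batch 2 alone for Adipoq (-0.0291), Nfat5 (-0.0883), Scnn1b (-0.13), Sgk1 (0.0787), Slc22a6 (-0.0169) and Zbtb16 (0.0701). Zbtb16 also reversed with voom (0.11) and with the replicate block (0.0920). Leaving out 1 library gave ranges across 0 for Adipoq (-0.22 to 0.47), Nfat5 (-0.11 to 0.0869), Nr3c1 (-0.0545 to 0.11), Scnn1b (-0.14 to 0.20), Scnn1g (-0.30 to 0.19) and Zbtb16 (-0.31 to 0.47). The median of the cell cycle list lay between 1.15 and 1.50 in all 19 alternatives. On leaving out 1 library, medians crossed 0 for the G1, growth factor, TGF-beta, protein kinase C, clock, injury, inflammation, principal cell, proximal tubule, endothelial and adipocyte lists. With the 50 bases after the start added to the promoter windows, a CHR element was found in 50.9% of the cell cycle windows and 15% of all, and an E2F site in 33.3% and 10.3%. Deviations of same-numbered libraries correlated at 0.112, 0.226, -0.031 and 0.404. Deviations within batches correlated at 0.0862 in batch 1 and 0.142 in batch 2. With 2 libraries of each group in a batch, both same-numbered pairs share 1 value and the crossed pairs have its opposite sign. As not every pair was over 0.1, the numbers were not taken as a pairing, though these values cannot decide whether they mark one. The replicate block gave 1315 higher and 945 lower genes at an unadjusted p under 0.05. A group of 4 and the counts of low genes limit all values.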

Other observations

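Genes of MHC class II, the molecules that present antigen to helper T cells, were higher with aldosterone. They were chosen after their values were seen, so no test is given. All 8 measured genes (Cd74, Ciita, RT1-Ba, RT1-Bb, RT1-Da, RT1-Db1, RT1-DMa and RT1-DMb) lay above 0, around a median of 1.13 (1.17 in batch 1 and 1.03 in batch 2), and 6 did not overlap between the groups, against 3.15% of all genes tested. Cd74, the invariant chain that guides class II molecules, stood at 95.6, 117, 126 and 77.9 CPM with aldosterone and 52.5, 48.4, 60.2 and 28.6 CPM in controls. RT1-Da, a class II alpha chain, stood at 16.9, 23.5, 22 and 13.8 CPM against 8.89, 6.69, 11.2 and 5.88 CPM (log2 1.22 ± 0.25). Ciita, the transactivator of these genes, stood at 1.56, 1.62, 1.84 and 2.4 CPM against 0.874, 0.797, 1.31 and 0.716 CPM (0.99 ± 0.25). Genes of the RT1 region are close relatives, so the split of reads among them is uncertain. MHC class I genes, presenters of peptides from within the cell, had a median of -0.02 over 5 members, of which 0 stood above without overlap. The leukocyte markers given in the report had a median of -0.26 in batch 1 and 0.97 in batch 2. Their part in the class II values was not tested.

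Some single genes, also chosen after their values were seen, stood apart without overlap. Tfrc, the transferrin receptor that takes up iron, stood at 91.2, 100, 77.7 and 86.8 CPM with aldosterone and 55.2, 31.9, 36.7 and 22.3 CPM in controls (log2 1.31 ± 0.21). Kcnc4, a voltage-gated K channel, stood at 17.9, 18.8, 20.9 and 16.7 CPM against 5.03, 7.79, 11 and 7.65 CPM (1.26 ± 0.20). Alox15, a lipoxygenase, stood at 22.6, 20.5, 15 and 10.6 CPM against 4.41, 7.55, 6.93 and 3.62 CPM (1.57 ± 0.27). Klk1, tissue kallikrein of the connecting tubule, stood at 3.26, 1.96, 3.13 and 3.92 CPM against 0.692, 0.97, 1.17 and 1.54 CPM (1.50 ± 0.26), a low level at which counting error adds to the spread. Car12, a carbonic anhydrase of the collecting duct, stood at 0.53 ± 0.18, and Slc6a8, the creatine transporter, at 0.63 ± 0.17.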
